A study of Mus musculus with 12 samples.

Results

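Genes of hepatic stellate cells and of the extracellular matrix were followed in the livers of obese mice after vertical sleeve gastrectomy or weight-matched food restriction. The set is a list of 46 gene symbols, given by name and drawn up with earlier results of these data known, out of the 46078 genes counted. Each symbol matched 1 Ensembl gene through GENCODE M21, and 45 of the 46 passed the filter on low counts that left 13054 genes for testing. Lox, which encodes a collagen cross-linking enzyme, was the member left out: it had between 0 and 10 counts in a library, or up to 0.597 CPM (counts per 1000000 counts of scaled library size). The list was divided by role into 5 fibrillar collagens, 8 basement membrane and other collagens, 11 proteoglycans and matrix glycoproteins, 7 matrix remodelling genes, 5 contractile and intermediate filament genes, and 10 genes of stellate identity, receptors and growth factors.

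Poly(A) RNA from the liver was sequenced in 12 mice, 4 in each of 3 groups, with 1 library per mouse. All were male C57BL/6 mice (C57BL/6J in the study's methods) aged 21 weeks with diet-induced obesity from a high fat diet, and all had abdominal surgery followed by a return to that diet. VSG mice had most of the stomach removed, Sham-WM mice had sham surgery and then restricted food so that their weight matched the VSG group, and Sham-Ad lib mice had sham surgery and unrestricted food. Comparing VSG with Sham-WM therefore asks what differs between the operation and weight-matched restriction, and comparing either with Sham-Ad lib asks what differs from obese mice that ate freely. Libraries are named by animal number: 3F, 4F, 6F and 10F for Sham-Ad lib, 2F, 9F, 15F and 16F for Sham-WM, and 1F, 8F, 11F and 18F for VSG, and values below are always in this order. That number is shared by the library name and the sample title, but another label field ties each title to a library with a different animal's number. All results rest on the animal number, and grouping by the other field left edgeR with 0 called genes in every comparison, as detailed at the end.

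Stellate cells lie between the sinusoidal endothelium and the hepatocytes, where in the resting state they store vitamin A and secrete growth factors and collectins. On activation they lose their vitamin A, express contractile proteins such as smooth muscle actin, and become the main source of fibrillar collagen in the scarred liver. The matrix they share with endothelial cells, portal fibroblasts and hepatocytes consists of collagens, proteoglycans and glycoproteins, which lysyl oxidases cross-link, matrix metalloproteinases cut and tissue inhibitors of metalloproteinases (TIMPs) protect. Several members are also expressed by other cells of the liver: fibronectin and collagen XVIII by hepatocytes, vimentin and thrombospondin by leukocytes and endothelium. In whole liver, fewer cells of a type and less RNA per cell cannot be told apart.

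Library totals lay between 15122520 and 19384076 counts. Levels are CPM scaled by the trimmed mean of M values (TMM), whose factor was 0.879 in library 11F and between 0.946 and 1.04 in the others. All 12 markers of stellate cells that were used as a check were detected in whole liver, with a summed level of 324 to 402 CPM in Sham-Ad lib livers, 318 to 381 CPM in Sham-WM livers and 232 to 320 in VSG livers; 10 of the 12 are members. The 8 hepatocyte markers summed to 102400 to 121934 CPM in Sham-Ad lib, 120887 to 147989 in Sham-WM and 77219 to 121487 in VSG. Of the 8, Alb and Cps1 were called lower in VSG than in Sham-WM livers (adjusted p = 0.0294 and 0.0174, edgeR), or 25% against 26.9% of all genes. The log2 fold changes of the 8 in that comparison were below 0 in 4 and above 0 in 4, with a median of 0.003. Whether the hepatocyte levels have a part in the members' values was not tested. Differences were tested gene by gene with edgeR's quasi-likelihood test over all 13054 genes, and a gene was called at a Benjamini-Hochberg adjusted p under 0.05.

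Per kilobase of exon, the members spanned a wide range of levels. Fibronectin (Fn1) was first at 176 CPM per kb over the 12 libraries, followed by collagen XVIII (Col18a1) at 156, the secreted glycoprotein Ecm1 at 45.5, decorin (Dcn) at 28.1 and the collectin Colec11 at 19.4. Among fibrillar collagens Col3a1 was the most abundant at 3.65 CPM per kb, ahead of Col1a1 at 2.03 and Col1a2 at 1.49. The contractile gene Acta2 stood at 0.922 CPM per kb and Lox was last at 0.0471. Low genes rest on few counts per library (10 to 84 for Thbs1) and abundant genes on many (950 to 2833 for Ecm1), and the precision of each difference is given as its standard error.

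The 3 comparisons differed in how many members they called. Between VSG and Sham-WM, 9 of 45 members passed, a share of 20% against 26.9% of all genes tested, with 6 lower and 3 higher after VSG, where 11.9% and 15% of all genes were lower and higher. At an unadjusted p under 0.05 there were 15 of 45, against 40.4% of all genes. Between Sham-WM and Sham-Ad lib, 1 of 45 passed (Mmp14, higher in Sham-WM), or 2.22% against 6.99% of all genes, where 3.53% were higher and 3.45% lower. Between VSG and Sham-Ad lib none of the 45 passed in edgeR's test, against 0.751% of all genes, while 13 had an unadjusted p under 0.05, against 24.1% of all genes, and DESeq2 called 4 (Bgn, Ecm1, Hgf and Reln, all lower), against 9.21%. The shares of members called in the comparisons with Sham-WM were thus not above those of genes at large. The median log2 fold change of the tested members was -0.29 for VSG against Sham-Ad lib, with 36 of 45 below 0, -0.21 for VSG against Sham-WM, with 34 below 0, and -0.03 for Sham-WM against Sham-Ad lib, with 28 below 0. The medians over all genes tested were 0.03, 0.03 and 0.00. Without library 11F the members' median was -0.08 for VSG against Sham-Ad lib and 0.02 for VSG against Sham-WM. By the ranges of the 4 libraries, the VSG values stood clear of those of Sham-Ad lib in 4 members, all lower after VSG (Bgn, Tagln, Reln and Lhx2), against 9.21% of all genes in either direction, 4.34% lower and 4.87% higher. Sham-WM and Sham-Ad lib did not overlap in 3 members, with Mmp14 higher and Col18a1 and Pdgfrb lower in Sham-WM, against 17.6% of all genes, 9.17% higher and 8.4% lower. VSG and Sham-WM did not overlap in 9 members, with 2 higher (Thbs1 and Rgs5) and 7 lower (Bgn, Ecm1, Acta2, Tagln, Reln, Hgf and Hand2) after VSG, against 26.2% of all genes, 14.3% higher and 11.9% lower. Both treatments are compared with the same 4 Sham-Ad lib libraries, so these comparisons are not independent of each other.

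**Figure D1:**
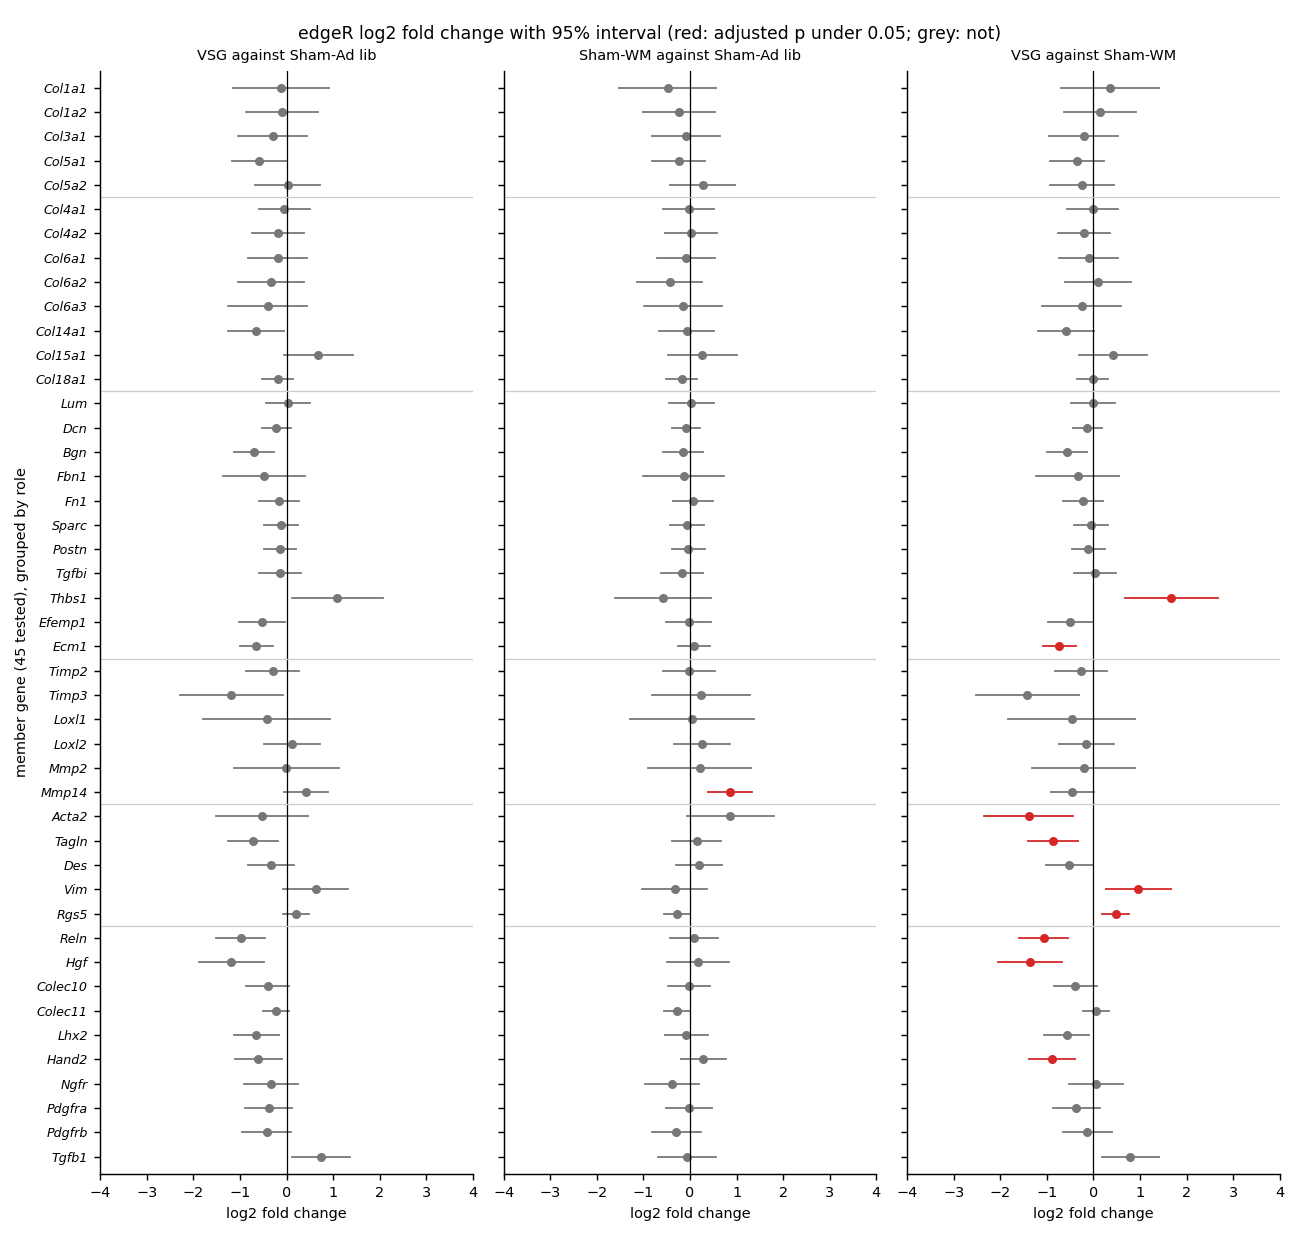
Log2 fold change of the 45 tested members (points) with its 95% interval (lines) in each of the 3 comparisons, in the order of roles and with red for an adjusted p under 0.05 in edgeR's test. No member is red for VSG against Sham-Ad lib, 1 (Mmp14) for Sham-WM against Sham-Ad lib and 9 for VSG against Sham-WM.

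Of the 10 genes of stellate identity, receptors and growth factors, 3 were lower in VSG than in Sham-WM livers (Reln, Hgf and Hand2) and none was higher. Of all genes tested, 11.9% were called lower and 15% higher in that comparison. The 4 VSG values of each of these 3 members lay below its 4 Sham-WM values, which was so, in this direction, for 11.9% of all genes tested. Reelin (Reln), a secreted glycoprotein that marks stellate cells in the liver, lies on chromosome 5 from 21884454 to 22344702 of mm10 (ENSMUSG00000042453). Its level was 66.2, 67.6, 62.6 and 56.8 CPM in Sham-Ad lib livers, 70.6, 59.0, 74.1 and 63.3 CPM in Sham-WM livers and 22.6, 36.7, 17.9 and 50.4 in VSG livers. Every VSG mouse was below every mouse of both sham groups, with 11F and 1F lowest and 18F closest to the shams. The log2 fold change was -1.06 (standard error, SE, 0.24, 95% interval -1.59 to -0.54, adjusted p = 0.00804, edgeR) against Sham-WM, which is 2.09-fold lower, and -0.99 (SE 0.24, adjusted p = 0.0585) against Sham-Ad lib.

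Hepatocyte growth factor (Hgf), which stellate cells secrete and which drives hepatocyte proliferation, lies on chromosome 5 from 16553495 to 16620152. Its level was 9.88, 8.85, 7.03 and 4.71 CPM in Sham-Ad lib livers, 7.69, 9.47, 9.54 and 7.77 CPM in Sham-WM livers and 1.79, 4.95, 1.88 and 4.61 in VSG livers. The VSG mice split into a pair under 2 CPM (1F and 11F) and a pair near 5 CPM (8F and 18F), all below the Sham-WM mice, while 8F was above the lowest Sham-Ad lib mouse. Against Sham-WM the log2 fold change was -1.36 (SE 0.32, adjusted p = 0.00922, edgeR), or 2.57-fold lower, and against Sham-Ad lib it was -1.19 (SE 0.32, adjusted p = 0.0671). Hand2, a transcription factor that marks liver mesenchymal cells, lies on chromosome 8 from 57320983 to 57324633 and overlaps its antisense gene Hand2os1, which had a mean of 23.2 counts against 76.2 for Hand2. It had 4.07, 5.96, 4.22 and 3.20 CPM in Sham-Ad lib livers, 4.13, 4.92, 6.53 and 5.74 CPM in Sham-WM livers and 2.27, 2.91, 2.56 and 3.70 in VSG livers. The VSG values lay below all Sham-WM values but overlapped Sham-Ad lib, with log2 fold changes of -0.89 (SE 0.23, adjusted p = 0.0142, edgeR) and -0.61 (SE 0.23, adjusted p = 0.141). Reln, Hgf, Hand2 and Ecm1, described below, kept an adjusted p under 0.05 between VSG and Sham-WM in all 12 fits that left out 1 library, with the highest adjusted p of 0.0257, 0.0266, 0.0478 and 0.0231 in the order Reln, Hgf, Hand2 and Ecm1. All 4 calls were lost with 2 RUVs factors, which stand for unwanted variation estimated from replicates (adjusted p = 0.164, 0.225, 0.287 and 0.369 in the same order, edgeR), and the log2 fold changes of Reln and Ecm1 were then -0.57 and -0.33.

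The other 7 genes of this role passed in no comparison in edgeR's test as described, while DESeq2 called Tgfb1 between VSG and Sham-WM. With RUVr factors, Lhx2 and Tgfb1 were called in both comparisons with VSG, and Pdgfrb in that with Sham-Ad lib. Between VSG and Sham-WM, Lhx2 was called without 8F, and Tgfb1 without a filter and without 2F, 11F or 18F. Without 4F, 11F and 18F together Tgfb1 was called in both comparisons with VSG. Colec11, a collectin made by stellate cells and hepatocytes, was 34.6, 41.4, 31.9 and 33.3 CPM in Sham-Ad lib livers, 30.5, 32.0, 30.9 and 22.9 CPM in Sham-WM livers and 28.3, 31.3, 26.1 and 34.7 in VSG livers. These ranges overlapped between all groups, and the log2 fold change of VSG against Sham-WM was 0.05 (95% interval -0.23 to 0.34). Its relative Colec10 averaged 26.4 ± 4.93 CPM in Sham-Ad lib livers, 26.0 ± 6.13 CPM in Sham-WM livers and 19.8 ± 5.42 in VSG livers (SD, n = 4 each). Lhx2, a transcription factor that keeps stellate cells quiescent, averaged 3.22 ± 0.515, 3.04 ± 0.467 and 2.03 ± 0.513 CPM, with log2 fold changes of VSG of -0.65 (adjusted p = 0.11, edgeR) against Sham-Ad lib and -0.58 (adjusted p = 0.0715) against Sham-WM. The growth factor receptors Pdgfra and Pdgfrb and the neurotrophin receptor Ngfr had adjusted p-values from edgeR of at least 0.304 in the comparisons with Sham-Ad lib and at least 0.25 between VSG and Sham-WM. Transforming growth factor beta (Tgfb1), the main fibrogenic cytokine, averaged 9.15 ± 2.09, 8.78 ± 2.29 and 15.2 ± 6.56 CPM. Its VSG values were 22.7, 18.5, 8.74 and 10.8, of which those of 1F and 8F lay above and the other 2 within the range of the shams, and its log2 fold change against Sham-WM was 0.79 (adjusted p = 0.0561, edgeR).

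**Figure D2:**
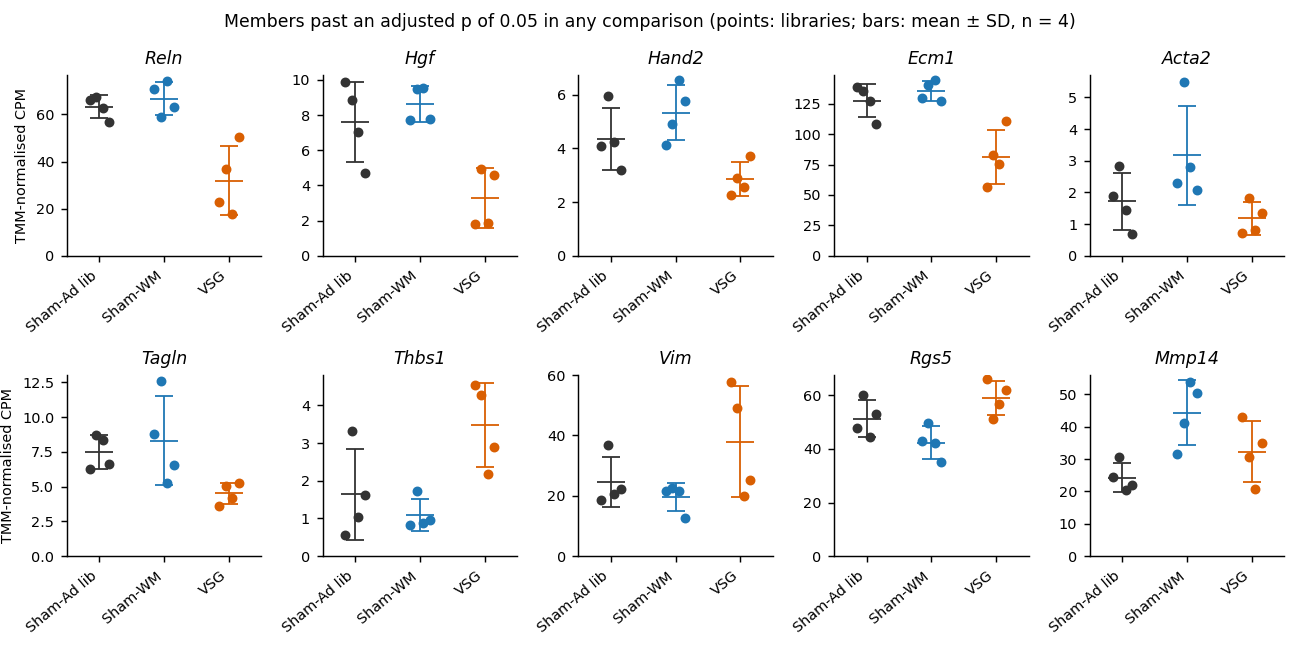
TMM-normalised CPM of the 10 members called in any comparison, with 1 point per library, the group mean as a horizontal bar and the SD over 4 libraries as the error bar. Reln, Hgf, Hand2 and Ecm1 lie below Sham-WM in all 4 VSG libraries, Thbs1 and Rgs5 lie above, and Mmp14 is highest in Sham-WM.

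The sequences upstream of 6 members are shown so that the genes that differed can be set beside one that did not. They are the 250 bases before the transcription start in RefSeq (GRCm38.p6), 5′ to 3′ on the strand of the gene, for Reln, Ecm1 and Hgf (lower in VSG than in Sham-WM), Rgs5 (higher in VSG than in Sham-WM), Mmp14 (higher in Sham-WM than in Sham-Ad lib) and the fibrillar collagen Col3a1 (called in no comparison). Capitals mark matches on either strand to the TATA box TATAAA, to CCAAT (the CCAAT box), to GGGCGG (the core of the GC box) and to TGANTCA (the site read by AP-1 factors), so that a CCAAT on the reverse strand reads ATTGG.
Reln (chr5:22344706-22344955, - strand): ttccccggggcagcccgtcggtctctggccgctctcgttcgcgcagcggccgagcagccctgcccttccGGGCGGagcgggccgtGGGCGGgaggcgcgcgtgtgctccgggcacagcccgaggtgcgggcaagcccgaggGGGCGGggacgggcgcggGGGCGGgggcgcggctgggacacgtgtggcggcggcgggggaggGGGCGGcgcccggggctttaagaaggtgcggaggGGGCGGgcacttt
Ecm1 (chr3:95739570-95739819, - strand): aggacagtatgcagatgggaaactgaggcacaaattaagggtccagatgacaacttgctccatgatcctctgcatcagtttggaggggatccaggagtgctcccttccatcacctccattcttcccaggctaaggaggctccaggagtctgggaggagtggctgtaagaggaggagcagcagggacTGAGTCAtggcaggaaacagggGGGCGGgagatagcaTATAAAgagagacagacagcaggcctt
Hgf (chr5:16553245-16553494, + strand): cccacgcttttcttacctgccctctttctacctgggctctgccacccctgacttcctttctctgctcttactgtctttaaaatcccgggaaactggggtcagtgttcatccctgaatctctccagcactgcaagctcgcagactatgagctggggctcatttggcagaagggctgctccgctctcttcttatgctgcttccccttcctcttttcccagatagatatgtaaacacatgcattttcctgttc
Rgs5 (chr1:169655251-169655500, + strand): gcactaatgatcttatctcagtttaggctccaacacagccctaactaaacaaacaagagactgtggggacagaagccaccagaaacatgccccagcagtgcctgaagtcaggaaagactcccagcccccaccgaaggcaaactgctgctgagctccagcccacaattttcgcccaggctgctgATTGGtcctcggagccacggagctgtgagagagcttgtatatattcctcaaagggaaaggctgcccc
Mmp14 (chr14:54431348-54431597, + strand): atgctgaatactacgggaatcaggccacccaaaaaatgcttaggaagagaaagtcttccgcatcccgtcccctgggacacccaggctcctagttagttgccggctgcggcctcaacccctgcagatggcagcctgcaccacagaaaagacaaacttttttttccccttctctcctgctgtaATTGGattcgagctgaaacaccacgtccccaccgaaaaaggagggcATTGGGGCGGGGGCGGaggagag
Col3a1 (chr1:45311288-45311537, + strand): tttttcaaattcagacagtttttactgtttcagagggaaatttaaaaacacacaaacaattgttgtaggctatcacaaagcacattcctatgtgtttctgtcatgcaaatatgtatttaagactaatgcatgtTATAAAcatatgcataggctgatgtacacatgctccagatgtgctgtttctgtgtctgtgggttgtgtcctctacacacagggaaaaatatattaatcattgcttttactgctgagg

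A TATAAA lay 27 bases before the start of Ecm1 and 117 bases before that of Col3a1. The Reln window held 6 GGGCGG, the Mmp14 window 2 GGGCGG and 2 reverse CCAAT, the nearer of which shares a base with a GGGCGG, and the Hgf window held none of these motifs. Of the 46 members, 32 had a window in the RefSeq table. A match was found for TATAAA in 3 of the 32, for CCAAT in 9, for GGGCGG in 19 and for TGANTCA in 3. Of all 32851 windows, 12.4%, 33.8%, 32.7% and 6.75% held these motifs in the same order. Members were counted by their first window only, while the full set includes several windows of some genes, so these shares count unlike units. The matches describe the letters in these windows and were not tested for any factor.

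Among the 5 contractile and intermediate filament genes, 4 were called between VSG and Sham-WM (26.9% of all genes were), with 2 lower and 2 higher after VSG. Smooth muscle actin (Acta2), the usual marker of activated stellate cells and of vascular smooth muscle, lies on chromosome 19 from 34241090 to 34255590. It was a low gene, with 1.90, 2.84, 1.46 and 0.690 CPM in Sham-Ad lib livers, 2.29, 5.48, 2.81 and 2.08 CPM in Sham-WM livers and 0.717, 1.84, 0.8286 and 1.37 in VSG livers. All VSG values lay below those of Sham-WM but within the range of Sham-Ad lib, and the Sham-WM mouse 9F stood above the rest. The log2 fold change of VSG against Sham-WM was -1.39 (SE 0.44, adjusted p = 0.0341, edgeR). The call was lost without 9F (adjusted p = 0.109), 15F (0.0591), 1F (0.0916) or 11F (0.0751).

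Transgelin (Tagln), an actin-binding protein of contractile cells on chromosome 9 from 45929619 to 45936058, had 6.25, 8.75, 8.38 and 6.65 CPM in Sham-Ad lib livers, 8.76, 12.6, 5.25 and 6.58 CPM in Sham-WM livers and 3.58, 5.05, 4.22 and 5.23 in VSG livers. The highest VSG value lay just under the lowest Sham-WM value, and both sham groups lay above the VSG group. Its log2 fold changes were -0.87 (SE 0.25, adjusted p = 0.022, edgeR) against Sham-WM and -0.73 (SE 0.25, adjusted p = 0.11) against Sham-Ad lib. Without 9F the adjusted p against Sham-WM was 0.0631 and without 1F it was 0.0625. Tagln shares exonic bases with Pcsk7 on the opposite strand, which had a mean of 441 counts against 123 for Tagln. Reads of such a pair can be told apart only if the counting used strand, which is not given in the sources used here. In a list of 8 vascular smooth muscle markers that holds both Acta2 and Tagln, the summed level was 115.1 to 133 CPM in Sham-Ad lib livers, 124 to 146 CPM in Sham-WM livers and 82.5 to 108.8 in VSG livers.

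Vimentin (Vim), the intermediate filament of mesenchymal cells and leukocytes, lies on chromosome 2 from 13573927 to 13582826. Its level was 18.8, 36.9, 20.4 and 22.3 CPM in Sham-Ad lib livers, 21.7, 22.4, 21.5 and 12.6 CPM in Sham-WM livers and 57.8, 49.0, 19.8 and 25.3 in VSG livers. The VSG mice 1F and 8F stood above all other mice, while 11F and 18F lay among the shams, so the groups overlapped. The log2 fold change against Sham-WM was 0.96 (SE 0.33, adjusted p = 0.0437, edgeR), and 9 of the 12 fits that left out 1 library did not call it, with the highest adjusted p of 0.143 without 1F. Rgs5, a regulator of G protein signalling in pericytes and stellate cells, lies on chromosome 1 from 169655501 to 169695813 and had 47.8, 60.2, 44.3 and 53.1 CPM in Sham-Ad lib livers, 42.8, 49.8, 42.0 and 34.95 CPM in Sham-WM livers and 66.1, 51.1, 56.9 and 61.9 in VSG livers. All 4 VSG values lay above those of Sham-WM and overlapped Sham-Ad lib. The difference from Sham-WM was small, with a log2 fold change of 0.48 (SE 0.13, adjusted p = 0.0191, edgeR), and it was lost without 15F (adjusted p = 0.0501), 16F (0.0632) or 1F (0.0569). Desmin (Des), the intermediate filament of resting rodent stellate cells, averaged 4.19 ± 1.23, 4.78 ± 0.502 and 3.32 ± 0.879 CPM in the 3 groups and was not called (adjusted p = 0.109 for VSG against Sham-WM, edgeR). Without 8F it was called in that comparison.

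Of the 11 proteoglycans and glycoproteins, Ecm1 was lower and thrombospondin 1 higher in VSG than in Sham-WM livers. In that comparison 11.9% of all genes were lower and 15% higher. Ecm1, a secreted glycoprotein that holds latent TGF-beta inactive in the liver, lies on chromosome 3 from 95734147 to 95739569. It had 139, 136, 127 and 108.3 CPM in Sham-Ad lib livers, 129.7, 140.0, 144 and 127 CPM in Sham-WM livers and 56.8, 82.5, 75.5 and 110.7 in VSG livers. The VSG values lay below all Sham-WM values, and 18F alone reached into the range of Sham-Ad lib. Its log2 fold change was -0.73 (SE 0.17, adjusted p = 0.00724, edgeR) against Sham-WM, or 1.66-fold lower, and -0.65 (SE 0.16, adjusted p = 0.0635) against Sham-Ad lib.

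Thrombospondin 1 (Thbs1), a matrix glycoprotein that can activate latent TGF-beta, lies on chromosome 2 from 118111876 to 118127133. It was also low, with 0.558, 3.33, 1.03 and 1.63 CPM in Sham-Ad lib livers, 0.815, 1.74, 0.867 and 0.957 CPM in Sham-WM livers and 4.54, 4.29, 2.18 and 2.90 in VSG livers. All VSG values lay above those of Sham-WM, and the Sham-Ad lib mouse 4F reached the VSG range. Against Sham-WM the log2 fold change was 1.67 (SE 0.46, 95% interval 0.67 to 2.67, adjusted p = 0.0195, edgeR), which is 3.17-fold higher. Without 15F, 16F or 1F the adjusted p rose to 0.0572, 0.0548 and 0.053.

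Fn1 and Dcn were the most abundant of this role by CPM, and neither was called. Fn1, an adhesive glycoprotein of matrix and plasma, was 2036, 2142, 1999.7 and 2244 CPM in Sham-Ad lib livers, 1731, 1859.9, 2545 and 2665 CPM in Sham-WM livers and 1699, 2436, 1317 and 2057 in VSG livers. The Sham-Ad lib values lay close together within the ranges of the other groups, and the 95% interval of the log2 fold change was -0.59 to 0.26 for VSG against Sham-Ad lib. Decorin (Dcn), a small proteoglycan that binds collagen fibrils, was 157, 226, 156 and 165 CPM in Sham-Ad lib livers, 189, 144, 174 and 156 CPM in Sham-WM livers and 132, 159, 142 and 171 in VSG livers. Library 4F was the highest of all 12, and the ranges of all groups overlapped. The related proteoglycan biglycan (Bgn), named after its values were seen, had 112.9, 137, 114.4 and 115.4 CPM in Sham-Ad lib livers, 112.2, 99.1, 123 and 98.2 CPM in Sham-WM livers and 69.1, 92.5, 41.5 and 89.9 in VSG livers. All its VSG values lay below both sham groups, yet the adjusted p was 0.0727 against Sham-Ad lib and 0.0518 against Sham-WM in edgeR's test. The other 6 genes of this role (Lum, Fbn1, Sparc, Postn, Tgfbi and Efemp1) passed in no comparison in edgeR's test as described. With RUVr factors Efemp1 was called in both comparisons with VSG.

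None of the 13 collagens was called in any comparison by edgeR's test as described or by DESeq2, though Col6a2 was called with RUVs factors, Col5a1 and Col14a1 with RUVr factors, and Col15a1 without libraries 4F, 11F and 18F, and unadjusted p-values under 0.05 in edgeR's test numbered 2 for VSG against Sham-Ad lib and 0 for both comparisons with Sham-WM. Their median log2 fold changes were -0.19 for VSG against Sham-Ad lib, -0.10 for VSG against Sham-WM and -0.09 for the comparison of the sham groups. Type III collagen (Col3a1), a major fibrillar collagen of liver reticulin, lies on chromosome 1 from 45311538 to 45349706. Its level was 33.0, 56.6, 35.1 and 31.4 CPM in Sham-Ad lib livers, 51.8, 37.8, 36.0 and 21.5 CPM in Sham-WM livers and 27.8, 37.1, 13.1 and 49.1 in VSG livers. The spread within each group exceeded the difference between groups, and the VSG mice 11F and 18F lay far apart at 13.1 and 49.1 CPM. The log2 fold change of VSG against Sham-Ad lib was -0.29 (SE 0.34, 95% interval -1.03 to 0.45), or between 0.488 and 1.36 as a ratio.

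The chains of type I collagen, the main collagen of scar tissue, were not called either. Col1a2, on chromosome 6 from 4504814 to 4541544, had 15.0, 31.7, 18.99 and 14.6 CPM in Sham-Ad lib livers, 21.7, 13.2, 18.2 and 14.9 CPM in Sham-WM livers and 18.3, 16.0, 7.46 and 32.8 in VSG livers. For Col1a1 the VSG values alone ran from 2.86 CPM in 11F to 28.5 in 18F, a 9.96-fold range. Both VSG extremes of Col1a2 lay outside the range of the sham groups. The 95% interval of the log2 fold change of VSG against Sham-WM was -0.63 to 0.91 for Col1a2 and -0.69 to 1.40 for Col1a1.

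**Figure D3:**
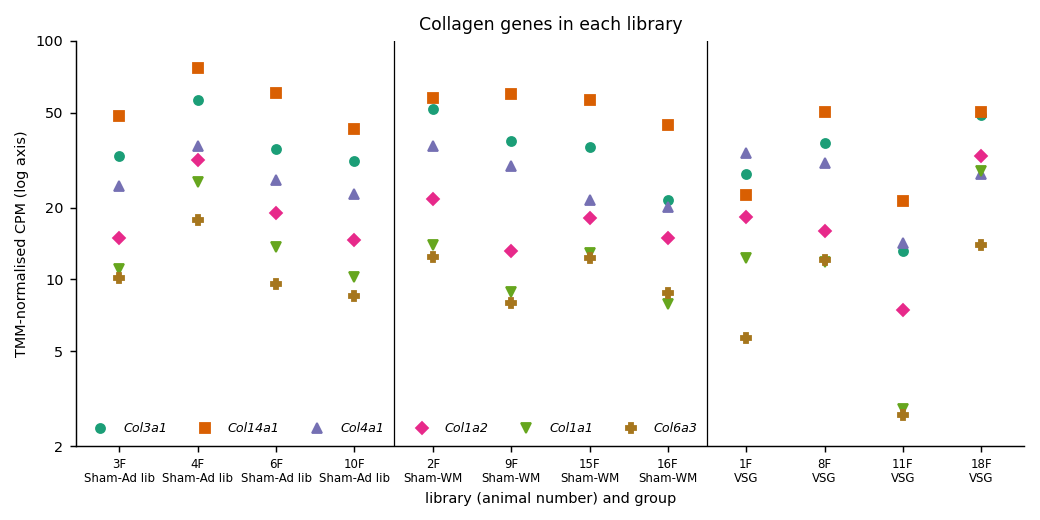
TMM-normalised CPM on a log axis of collagen genes in each of the 12 libraries, grouped by treatment. All of these genes are lowest of the VSG mice in 11F and highest of the Sham-Ad lib mice in 4F, for example Col1a1 at 2.86 and 25.7 CPM.

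Col18a1 and Col14a1 had the highest CPM of the other collagens. Collagen XVIII (Col18a1), a basement membrane collagen whose cleavage gives endostatin, lies on chromosome 10 from 77052178 to 77166548. It was 1178, 1157, 1183 and 1244 CPM in Sham-Ad lib livers, 1003, 1132, 1089 and 997 CPM in Sham-WM livers and 981, 1207, 734 and 1243 in VSG livers. All Sham-WM values lay below all Sham-Ad lib values, but by little, and the log2 fold change of -0.17 (SE 0.16, adjusted p = 0.57, edgeR) was not called. Collagen XIV (Col14a1), which binds to the surface of fibrils, lies on chromosome 15 from 55307750 to 55520803 and had 48.6, 76.6, 60.6 and 42.9 CPM in Sham-Ad lib livers, 57.5, 59.8, 56.3 and 44.5 CPM in Sham-WM livers and 22.5, 50.2, 21.4 and 50.1 in VSG livers. The VSG mice split into a pair near 22 CPM (1F and 11F) and a pair near 50 CPM, and the log2 fold change was -0.66 (SE 0.28, adjusted p = 0.17, edgeR) against Sham-Ad lib. The type IV chains Col4a1 and Col4a2, which start head to head on chromosome 8 and form the sinusoidal basement membrane scaffold, had 95% intervals that spanned 0 in all 3 comparisons.

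Among matrix remodelling genes, Mmp14 was higher in Sham-WM than in Sham-Ad lib livers and no other gene was called in any comparison by edgeR's test as described. Mmp14, a membrane-bound metalloproteinase that cuts collagen and activates Mmp2, lies on chromosome 14 from 54431612 to 54445364. Its level was 24.3, 30.7, 20.3 and 21.8 CPM in Sham-Ad lib livers, 31.6, 41.2, 53.8 and 50.5 CPM in Sham-WM livers and 43.1, 30.6, 20.6 and 34.8 in VSG livers. Every Sham-WM value lay above every Sham-Ad lib value, and the VSG values overlapped both. The log2 fold change of Sham-WM was 0.87 (SE 0.22, 95% interval 0.39 to 1.34, adjusted p = 0.0309, edgeR), or 1.82-fold higher, and that of VSG against Sham-Ad lib was 0.41 (SE 0.22, adjusted p = 0.264). The call was lost without 3F (adjusted p = 0.0715), 6F (0.0891), 10F (0.101), 15F (0.101) or 16F (0.0929). Timp2, an inhibitor of metalloproteinases, was 15.1, 20.3, 16.4 and 13.0 CPM in Sham-Ad lib livers, 14.8, 15.0, 21.0 and 12.7 CPM in Sham-WM livers and 16.8, 13.6, 6.03 and 16.2 in VSG livers and was not called. Timp3, a TIMP that binds to the matrix, had VSG values of 1.61, 7.96, 1.13 and 10.2 CPM, a 9.01-fold range, against 7.65 to 18.3 in the 8 sham livers. Its log2 fold change against Sham-WM was -1.42 (SE 0.51, adjusted p = 0.0549, edgeR). Timp3 was called in that comparison without a filter, without 8F, without 18F, and without 4F, 11F and 18F together. With RUVr factors both Timp3 and Mmp14 were called in it. The cross-linking enzymes Loxl1 and Loxl2 and the gelatinase Mmp2 averaged between 1.54 and 4.77 CPM in every group and were not called by the test as described. Mmp2 was called between VSG and Sham-WM without 18F, and Loxl1 had 0 counts in library 11F.

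The spread between mice of a group was larger for the members than for genes at large, whose levels were not matched to those of the members. The median SD of log2(CPM + 0.5) over 4 mice for the members was 0.298 for the Sham-Ad lib, 0.281 for the Sham-WM and 0.526 for the VSG mice, and 0.19, 0.185 and 0.28 for all genes tested. Single libraries often held the extremes. Library 4F was the highest of the 4 Sham-Ad lib libraries in 38 of 45 members (84.4%) and in 12 of 13 collagens, against 30.9% of all genes. Library 11F was the lowest of the VSG libraries in 35 of 45 members (77.8%) and in all 13 collagens, against 31.6% of all genes, and 18F was the highest in 23 of 45, against 21.9%. The fibrillar collagens deviated from their mean over all 12 libraries by a median of 0.74 on the log2 scale in 4F, 0.54 in 18F and -1.17 in 11F.

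Counts of called members, and of all genes called, moved with these libraries. The comparison of VSG with Sham-Ad lib called 4 of 45 members without 18F, 1 without 4F (Thbs1) and 1 without 8F (Hgf). In these fits 8.2%, 6.82% and 1.72% of all genes were called, in the same order. Without 4F, 11F and 18F together, an alternative chosen after the values were seen, it called 7 members, against 12.7% of all genes. Between VSG and Sham-WM the count was 9 members with those 3 libraries left out, against 24.5% of all genes. Of the 9 members, 7 were shared with the 9 called in all libraries, while Acta2 and Tagln were not called (adjusted p = 0.0987 and 0.0622, edgeR). Within VSG, the highest library exceeded the lowest 15.0-fold for Mmp2, 9.96-fold for Col1a1, 9.01-fold for Timp3 and 7.34-fold for Fbn1.

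**Figure D4:**
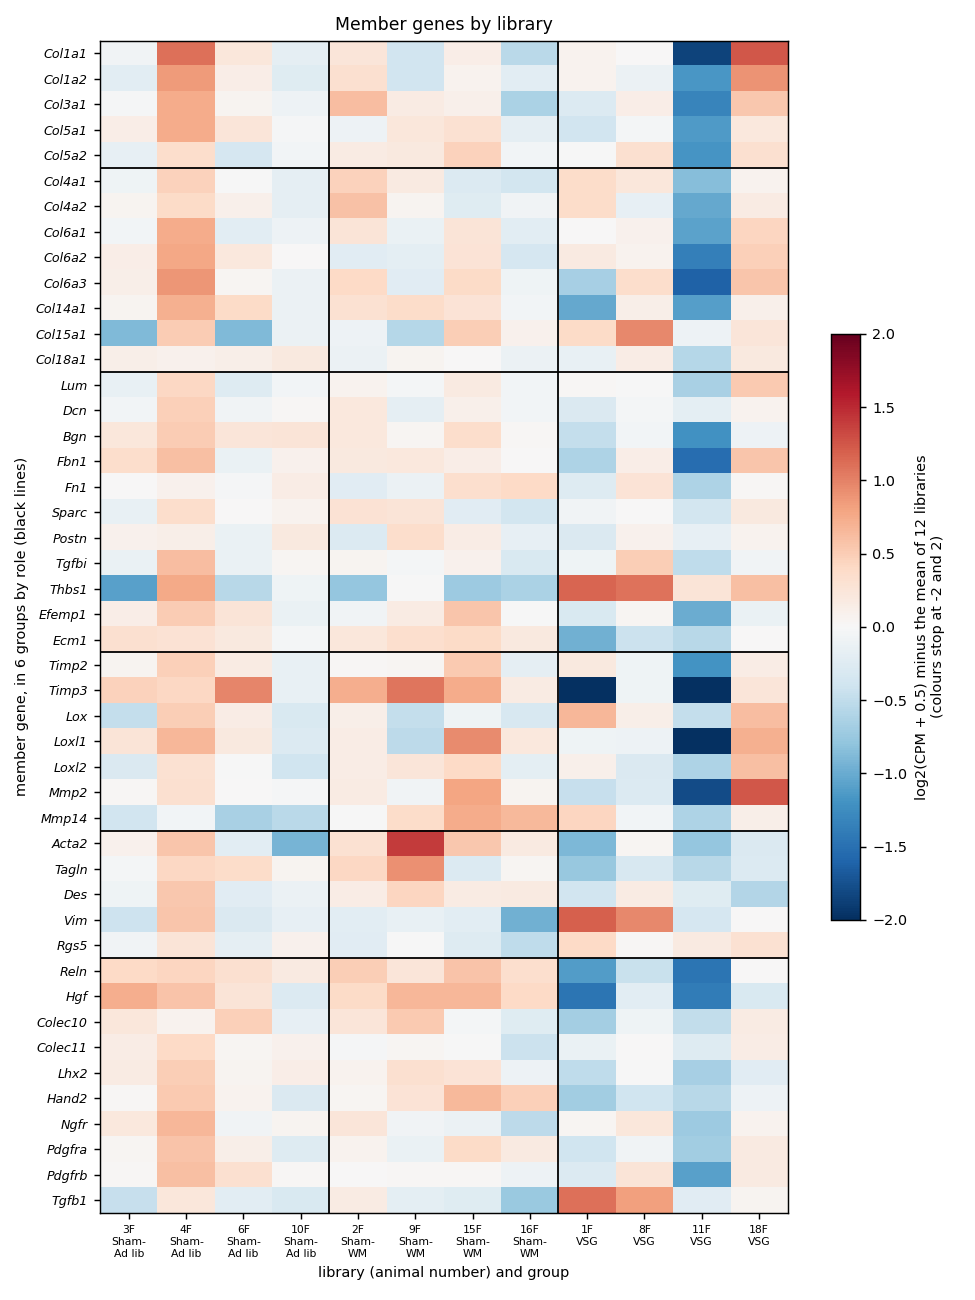
Level of each of the 46 members in each library as log2(CPM + 0.5) minus its mean over the 12 libraries, with red for higher and blue for lower, columns grouped by treatment and black lines between roles. Most members are red in 4F and blue in 11F, and the stellate identity genes Reln and Hgf are blue in the VSG libraries 1F and 11F.

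Markers of other cells differed between the groups at the same time. A list of 10 Kupffer cell genes summed to 357 to 688 CPM in Sham-Ad lib livers, 266 to 417 CPM in Sham-WM livers and 783 to 1866 in VSG livers. For 8 neutrophil genes the sums were 0.379 to 13.8, 1.18 to 2.24 and 31.9 to 1035 CPM, and for 9 genes of recruited macrophages they were 37.3 to 147, 32.1 to 66.8 and 144 to 556 CPM. Within VSG, 1F and 8F had the highest sums of Kupffer genes (1866 and 1023 CPM) and of neutrophil genes (1035 and 441 CPM) and also the highest Vim, Tgfb1 and Thbs1. Library 4F had the highest Kupffer sum of its group at 688 CPM, and 11F, where most members were lowest, had 949 CPM, between the other VSG mice. Sinusoidal endothelial markers summed to 203 to 291 CPM in Sham-Ad lib livers, 232 to 351 CPM in Sham-WM livers and 186 to 322 in VSG livers, and portal fibroblast markers to 50.8 to 108.7, 64.8 to 104.97 and 68.1 to 129 CPM. The part of these cells in the members' values was not tested.

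**Figure D5:**
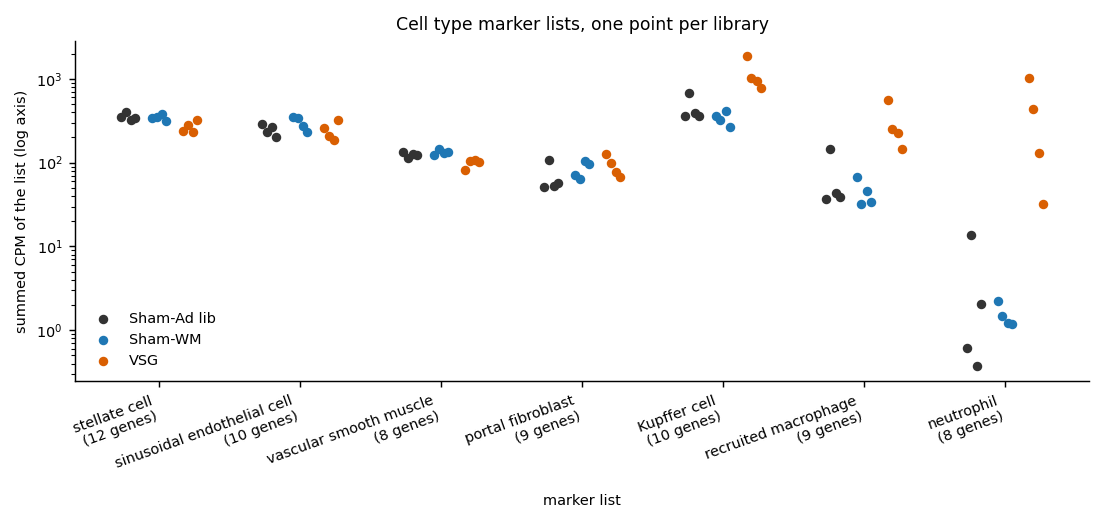
Summed CPM on a log axis of marker lists for 7 cell types, with 1 point per library and colours for the treatment. The Kupffer cell, recruited macrophage and neutrophil sums are higher in VSG, up to 1866, 556 and 1035 CPM, with overlap of the recruited macrophage sums of VSG (from 144 CPM) and Sham-Ad lib (up to 147 CPM), and the stellate cell sums of VSG, at 232 to 320 CPM, overlap those of Sham-WM, from 318 CPM.

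A further 90 genes of matrix biology and stellate cells, outside the members, were examined in 5 lists, and 83 were tested. Between VSG and Sham-WM 28 of 83 were called (33.7%, against 26.9% of all genes), 22 of them lower after VSG. Between Sham-WM and Sham-Ad lib 7 were called, all higher in Sham-WM (8.43%, against 6.99%), and between VSG and Sham-Ad lib 1 was called (1.2%, against 0.751%). Of 15 other stellate cell genes, 6 were lower and 2 higher in VSG than in Sham-WM livers, against the same 11.9% and 15% of all genes in these directions. Lrat, which esterifies retinol for storage, averaged 16.3 ± 2.37 CPM in Sham-Ad lib livers, 28.6 ± 10.5 CPM in Sham-WM livers and 11.4 ± 2.05 in VSG livers (SD, n = 4 each), with log2 fold changes of 0.82 (adjusted p = 0.0384, edgeR) for Sham-WM against Sham-Ad lib and -1.33 (adjusted p = 0.00174) for VSG against Sham-WM. The intermediate filament nestin (Nes) averaged 2.47 ± 0.442, 4.49 ± 1.03 and 1.26 ± 0.603 CPM, and its log2 fold change was -1.81 (adjusted p = 0.00206, edgeR) for VSG against Sham-WM. The metalloreductase Steap4 was higher in VSG than in Sham-WM livers, by 1.80 on the log2 scale (adjusted p = 0.0263, edgeR).

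Basement membrane and other matrix genes had 7 lower and 1 higher of 21 tested between VSG and Sham-WM, where 11.9% of all genes were lower and 15% higher. Nidogen 2 (Nid2), which links laminin to type IV collagen, had a log2 fold change of -1.20 (SE 0.28, adjusted p = 0.00845, edgeR). The collagens Col13a1 and Col27a1, which are not members, were higher in Sham-WM than in Sham-Ad lib livers by 1.62 and 1.59 on the log2 scale (adjusted p = 0.0479 and 0.0335, edgeR) and lower in VSG than in Sham-WM livers, with log2 fold changes of -2.14 and -1.64 (adjusted p = 0.00649 and 0.0119). Of 16 collagen maturation genes, 2 were lower in VSG than in Sham-WM (12.5%, against 11.9% of all genes). They were the lysyl oxidase Loxl4 at -1.999 (adjusted p = 0.00652, edgeR) and the collagen chaperone Serpinh1 at -0.71 (adjusted p = 0.0212). Loxl4 and the prolyl hydroxylase subunit P4ha2 were higher in Sham-WM than in Sham-Ad lib livers, at 1.61 (adjusted p = 0.0369) and 1.01 (adjusted p = 0.0194) in the same test.

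Signals and proteases around the matrix moved both ways. Of 22 genes of TGF-beta and PDGF signalling, 5 were lower and 2 higher in VSG than in Sham-WM livers, against 11.9% and 15% of all genes. The ligand Pdgfd was lower, at -1.19 (adjusted p = 0.0133, edgeR), as was the latent TGF-beta binding protein Ltbp4, at -0.83 (adjusted p = 0.0373). The ligand Pdgfc and the inhibitory Smad7 were higher in Sham-WM than in Sham-Ad lib livers, at 1.11 (adjusted p = 0.0212) and 0.79 (adjusted p = 0.0465) in edgeR's test. Among 9 tested proteases and inhibitors, Mmp9, a gelatinase of neutrophils and macrophages, rose after VSG to 7.72 ± 8.06 CPM from 0.424 ± 0.473 in Sham-Ad lib, with log2 fold changes of 4.14 (adjusted p = 0.0469, edgeR) against Sham-Ad lib and 4.29 (adjusted p = 0.00404) against Sham-WM. Adamts1 and Mmp19 were lower in VSG than in Sham-WM livers, at -1.15 (adjusted p = 0.00943) and -0.44 (adjusted p = 0.0349). Timp1, a TIMP that rises in liver fibrosis and is named after its values were seen, was under the filter on low counts and averaged between 0.255 and 0.37 CPM in the groups.

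Other choices moved the calls as well. DESeq2 called 11 of 45 members between VSG and Sham-WM, against 31.3% of all genes. The fit without a filter called 12 of 46, against 14.3%, and that with 2 RUVr factors 16 of 45, against 42.1%. The fit of only these 2 groups called 8 of 45, against 20.9%, and lost Vim. With 2 factors of unwanted variation estimated from replicates (RUVs) in edgeR's fit, 0 of the 45 members were called between VSG and Sham-WM, against 4.01% of all genes. An unadjusted p under 0.05 was found in that fit for 5 members, against 19.1% of all genes. The adjusted p-values of the 9 members called without these factors then lay between 0.164 for Reln and 0.938 for Vim. Index numbers in the library names run in 1 block for each treatment, and a batch in that order cannot be told apart from treatment. Under the grouping by the other label field, edgeR called 0 of all genes tested in each of the 3 comparisons, and 3, 7 and 0 of the 45 members had an unadjusted p under 0.05 for VSG against Sham-Ad lib, for Sham-WM against Sham-Ad lib and for VSG against Sham-WM (465, 715 and 158 of all genes).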

How the data were processed

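RNA-seq of liver from 12 mice, 4 per group, was analysed. The authors aligned reads to mm10 with TopHat2 2.1.1, counted reads on genes with featureCounts and deposited raw counts, 1 column per library, neither normalised nor corrected for batch. The annotation release and the strand setting of the counting are not given in the sources used here. Libraries were grouped by the animal number that the column name and the sample title share, as members of a group and not as single samples. Another label field pairs titles with other libraries, and grouping by it was run as an alternative. Mice are the replicates, so each p-value sets a difference between groups against the spread between mice within groups. In the main fit that spread was estimated from all 3 groups together, although the median spread of the members was larger in VSG.

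Genes were named through GENCODE M21, which matched 45229 of 46078. Genes were kept by filterByExpr (minimum count 10, minimum total 15), and 1 model of the 3 group means, with TMM scaling, was fitted to the 12 libraries and tested by quasi-likelihood in edgeR 4.0.16 (limma 3.58.1, R 4.3.3). The Benjamini-Hochberg adjustment covered 13054 genes. Standard errors and 95% intervals come from the same fit. CPM are TMM-normalised and log2 levels used a pseudocount of 0.5 CPM. The procedure was tested on simulated data. Members and lists were chosen with earlier results of these data known.

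Values in every library are given for members called in any comparison and for the 2 members of highest mean CPM in each role. Outside the members, genes named were at most the 3 of largest log2 fold change per list and comparison among called genes that averaged 0 or more in log2 CPM. The alternatives were DESeq2 1.42.0, 2 other scalings (RLE and upper quartile), no filter, a stricter filter (10 counts or more in each library), fits of the 2 groups compared, 2 RUVs or RUVr factors (the study names RUVSeq without its method), the second label field, and leaving out libraries. Intervals on depth were not given because counts of reads without molecular identifiers are not independent molecules. Some genes of the lists are not reported here.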

Additional observations from a re-analysis of the deposited data

Results flagged for a closer look

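In 3 of the 54 groups of 4 libraries tested for named members, 1 library stood apart from the other 3, on the log2(CPM + 0.5) scale, by more than Dixon's 95% critical value, which chance passes in about 1 of 20 groups. Vim was lowest of the Sham-WM livers in 16F, at 12.6 CPM against 21.5 to 22.4 in the other 3, a gap of 0.928 of the group's range on that log2 scale. Colec11 was also lowest in 16F, at 22.9 CPM against 30.5 to 32.0, a gap of 0.858 of the range. Dcn was highest of the Sham-Ad lib livers in 4F, at 226 CPM against 156 to 165, a gap of 0.845 of the range. Library 16F was the lowest Sham-WM library in 27 of 45 members, against 25.5% of all genes, and 4F the highest Sham-Ad lib library in 38 of 45.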

How the results depend on the processing

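The number of members called for VSG against Sham-Ad lib, 0 in the analysis as reported, was 4 with DESeq2 and with no filter on low counts, 13 with RUVr factors, 7 without libraries 4F, 11F and 18F (an alternative chosen after seeing the data), and 0 to 4 when 1 library was left out. For Sham-WM against Sham-Ad lib, 1 as reported, it was 2 with RUVs factors (Col6a2 and Mmp14), 0 by the second label field, and 0 to 1 with 1 library left out. For VSG against Sham-WM, 9 as reported, it was 0 with RUVs factors, 16 with RUVr factors, 0 by the second label field, and 4 (without 1F) to 13 (without 18F) with 1 library left out. The causes were not tested. By the second label field the median log2 fold change of the members was 0.20 for VSG and 0.33 for Sham-WM against Sham-Ad lib, and the sign turned for Mmp14 (-0.26 for Sham-WM against Sham-Ad lib), Thbs1 (-0.24) and Vim (-0.061, both VSG against Sham-WM). With 1 library left out, the median for VSG against Sham-WM ran from -0.40 without 18F to 0.02 without 11F, that for VSG against Sham-Ad lib from -0.52 without 18F to -0.08 without 11F, and that for Sham-WM against Sham-Ad lib from -0.13 to 0.11. Over all genes, the 98 calls for VSG against Sham-Ad lib became 1202 with DESeq2, 628 with no filter, 8 with RUVs and 3029 with RUVr factors, 1723 without the 3 libraries, and 0 with at least 10 counts in every library (2755 genes at an unadjusted p under 0.05, edgeR). The 912 for Sham-WM against Sham-Ad lib became 1445 with DESeq2, 1724 with RUVs and 2162 with RUVr factors, and the 3509 for VSG against Sham-WM became 524 and 5496 with these factors. With 1 library left out, the calls over all genes ran from 0 to 1089 for VSG against Sham-Ad lib, from 424 to 1311 for Sham-WM against Sham-Ad lib and from 2196 to 3868 for VSG against Sham-WM. RLE and upper quartile scaling kept the member counts at 0, 1 and 9. No paired analysis was possible because the groups share no animal numbers. For VSG against Sham-WM the standard error of the log2 fold change reached 0.63 for Loxl1, which limits what 4 mice per group can show.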

Other observations

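The other lists of cell type markers had 2 to 7 tested genes each. Of 6 tested cholangiocyte markers 0 were called in any comparison by edgeR, against 26.9% of all genes for VSG against Sham-WM. In that comparison 2 had an unadjusted p under 0.05, against 40.4% of all genes, and DESeq2 called 2, against 31.3%. The list summed to 39.6 to 74.8 CPM in Sham-Ad lib livers, 38.0 to 44.1 in Sham-WM livers and 37.8 to 95.4 in VSG livers. Mesothelial markers summed to 330 to 575, 285 to 369 and 400 to 478 CPM in the same order, nearly all of it from the keratins Krt8 and Krt18, which other epithelial cells also express. Of 6 tested, Krt18 alone was called, higher in VSG than in Sham-WM livers, where 15% of all genes were higher. The median log2 fold change of the 6 in that comparison was -1.03. Red blood cell genes summed to 281 to 590, 151 to 314 and 142 to 732 CPM, and 1 of 7 was called, also higher in VSG than in Sham-WM livers, where 15% of all genes were higher. Of 6 adipocyte genes, Adipoq, Lep, Plin1 and Retn were under 0.1 CPM, and the lipid droplet genes Plin4 and Cidec were the 2 tested. Both were called lower in Sham-WM than in Sham-Ad lib livers, against 3.45% of all genes in this direction. The sum of the list was 13.1 to 69.4 CPM in Sham-Ad lib livers, 4.56 to 13.9 CPM in Sham-WM livers and 12.002 to 16.3 CPM in VSG livers. Library 4F, where most members were highest of the Sham-Ad lib livers, had the highest sum of the mesothelial list (575 CPM), adipocyte sum (69.4 CPM) and neutrophil sum (13.8 CPM) of its group. Its portal fibroblast sum of 108.7 CPM was also the highest of its group, against 50.8 to 56.5 CPM in the other 3.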
